A study of Mus musculus with 12 samples.

Results

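The genes described here are 8 that mark basophils and mast cells: *Mcpt8*, *Prss34*, *Cpa3*, *Fcer1a*, *Ms4a2*, *Gata2*, *Cd200r3* and *Hdc*. They were taken by name, matched to the Ensembl identifiers of the deposited count table, and all 8 of the 55421 genes in it were found. All 8 were also among the 15999 genes with enough reads to test. The libraries came from cells sorted from marrow by an endothelial gate in 12 mice, all 20 weeks old, with 3 mice in each of 4 groups and 1 library per mouse. Controls were naive C57BL/6J mice. Hypertension was induced in C57BL/6J mice by chronic angiotensin II (Ang II) given through osmotic minipumps, and MI mice were C57BL/6J mice 2 days after permanent ligation of a coronary artery by the labels, while the text of the study names a later day. The atherosclerosis group was Apoe(tm1Unc), that is Apoe-/-, and was fed a western-type diet according to the study's methods, so that genotype and diet cannot be told apart. No sham-operated, saline-pump or wild-type diet group is among these libraries.

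Basophils and mast cells are rare granulocytes that carry the high-affinity receptor for IgE. Binding of antigen to that IgE makes them release histamine and granule proteases and secrete cytokines. Basophils mature in the marrow and circulate, whereas mast cells leave the marrow as precursors and mature in tissues. Both arise from progenitors that need the transcription factor GATA2. The 8 genes cover these functions: *Mcpt8*, *Prss34* and *Cpa3* encode granule proteases, *Fcer1a* and *Ms4a2* encode the alpha and beta chains of the IgE receptor, *Cd200r3* encodes an activating member of the CD200 receptor family, *Hdc* encodes histidine decarboxylase, which makes histamine, and *Gata2* encodes the transcription factor itself. *Gata2* is also used by hematopoietic stem cells, megakaryocyte progenitors and endothelial cells, and *Hdc* by other myeloid cells.

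Each library held between 17007088 and 25136936 counts, and 3 counts were taken as the smallest amount measured. *Apoe* read 7.27 to 14.8 CPM (counts scaled to a fixed library total, after TMM normalization) in the Apoe-/- libraries and 450 to 1500 CPM in the other 9, so the labels and this gene go together. The gate was TER-119- CD41- CD45- CD31hi SCA-1+ after magnetic lineage depletion, and a CD45- gate leaves out basophils, mast cells and neutrophils. Even so, 15 endothelial markers summed to 155.3 to 300.1 CPM per library, whereas 13 neutrophil markers summed to 34070 to 98110 CPM, 9 eosinophil markers to 6219 to 15340 CPM and 9 basophil markers to 1041 to 7027 CPM. Markers of cells that the gate should have left out were thus present, and the part of those cells in the results below was not tested. In bulk RNA of this kind, fewer cells of a type and less RNA per cell cannot be told apart. One library, MI replicate 2, had the lowest value of the 12 for each of the 8 genes, and it also had the highest neutrophil sum. For the MI comparisons, fitted differences without it are therefore given as well.

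The promoters of several of these genes held the letters that GATA factors bind, and they are shown because *Gata2* is itself one of the 8 genes. RefSeq windows (GRCm38.p6) of 300 bases, 250 before and 50 after the annotated start, were found for 8 of 8 genes, with 9 windows in all since *Gata2* has an additional start. They were searched on both strands for the letters AGATAA, the variant AGATAG, the variant TGATAA and the variant TGATAG. At least 1 match was present in 6 of the 9 windows, against 29.8% of 32851 windows of all genes. The windows of *Mcpt8* and *Gata2* held none. The letters TGTGGT, bound by RUNX factors, were in 3 of 9 windows against 16.8% of all, and TTCNNNGAA, bound by STAT factors, was in 0 of 9 against 8.3%. The following 4 windows belong to the most abundant protease, the protease *Cpa3* and both receptor chains, and are written 5′ to 3′ on the strand of the gene with the GATA letters of either strand in capitals. The *Prss34* window is chr17:25298144-25298443 on the plus strand, and the minus strand carries those of *Cpa3* (chr3:20242132-20242431), *Fcer1a* (chr1:173227180-173227479) and *Ms4a2* (chr19:11623670-11623969).
Prss34: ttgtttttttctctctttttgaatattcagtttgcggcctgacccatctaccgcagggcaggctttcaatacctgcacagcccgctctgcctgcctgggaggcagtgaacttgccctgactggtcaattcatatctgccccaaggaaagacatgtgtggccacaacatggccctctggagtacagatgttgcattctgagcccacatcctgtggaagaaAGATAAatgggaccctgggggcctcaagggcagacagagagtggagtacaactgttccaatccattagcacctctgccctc
Cpa3: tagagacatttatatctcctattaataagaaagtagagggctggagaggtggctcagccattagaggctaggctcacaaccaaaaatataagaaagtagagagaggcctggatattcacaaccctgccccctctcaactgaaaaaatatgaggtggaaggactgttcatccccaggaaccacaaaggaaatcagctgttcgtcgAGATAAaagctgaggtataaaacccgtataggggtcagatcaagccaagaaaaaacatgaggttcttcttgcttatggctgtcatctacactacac
Fcer1a: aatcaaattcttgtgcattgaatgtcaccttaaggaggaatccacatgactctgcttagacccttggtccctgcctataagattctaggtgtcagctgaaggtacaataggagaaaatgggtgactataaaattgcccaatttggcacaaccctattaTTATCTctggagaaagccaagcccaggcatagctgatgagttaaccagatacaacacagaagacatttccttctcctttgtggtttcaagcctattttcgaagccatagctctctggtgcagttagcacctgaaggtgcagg
Ms4a2: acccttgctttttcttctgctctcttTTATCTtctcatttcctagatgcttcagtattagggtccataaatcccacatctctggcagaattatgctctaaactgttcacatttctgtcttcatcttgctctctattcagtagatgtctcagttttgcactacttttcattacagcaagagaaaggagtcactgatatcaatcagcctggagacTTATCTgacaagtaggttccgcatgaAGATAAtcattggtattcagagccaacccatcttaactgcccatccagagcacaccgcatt

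The match lay 31 bases before the start in *Prss34*, 46 bases before it in *Cpa3* and 92 bases before it in *Fcer1a*. *Ms4a2* had 3 matches, at 224, 37 and 11 bases before the start. *Cd200r3* also had 3, at 115, 39 and 33 bases, and *Hdc* had 1 at 221 bases. A match of letters is a description of the sequence, and factor binding was not measured.

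The levels of the 8 genes spanned a wide range. Per kilobase of exon, the median over the 12 libraries was 2294 CPM for *Prss34*, 78.1 CPM for *Mcpt8*, 46.4 CPM for *Hdc*, and 13.7 CPM for *Cpa3*. The IgE receptor chains stood at 17.1 CPM per kilobase for *Fcer1a* and 4.21 for *Ms4a2*, next to 4.74 for *Gata2* and 2.50 for *Cd200r3*. By mean level, *Prss34* lay at the 99.9th percentile of the genes tested and *Ms4a2*, the lowest, at the 49.5th. *Prss34* alone took between 0.0891% and 0.706% of all counts of a library. The highest library was from the atherosclerosis group for each of the 8 genes, replicate 2 or 3 for 3 genes each and replicate 4 for 2.

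**Figure D1:**
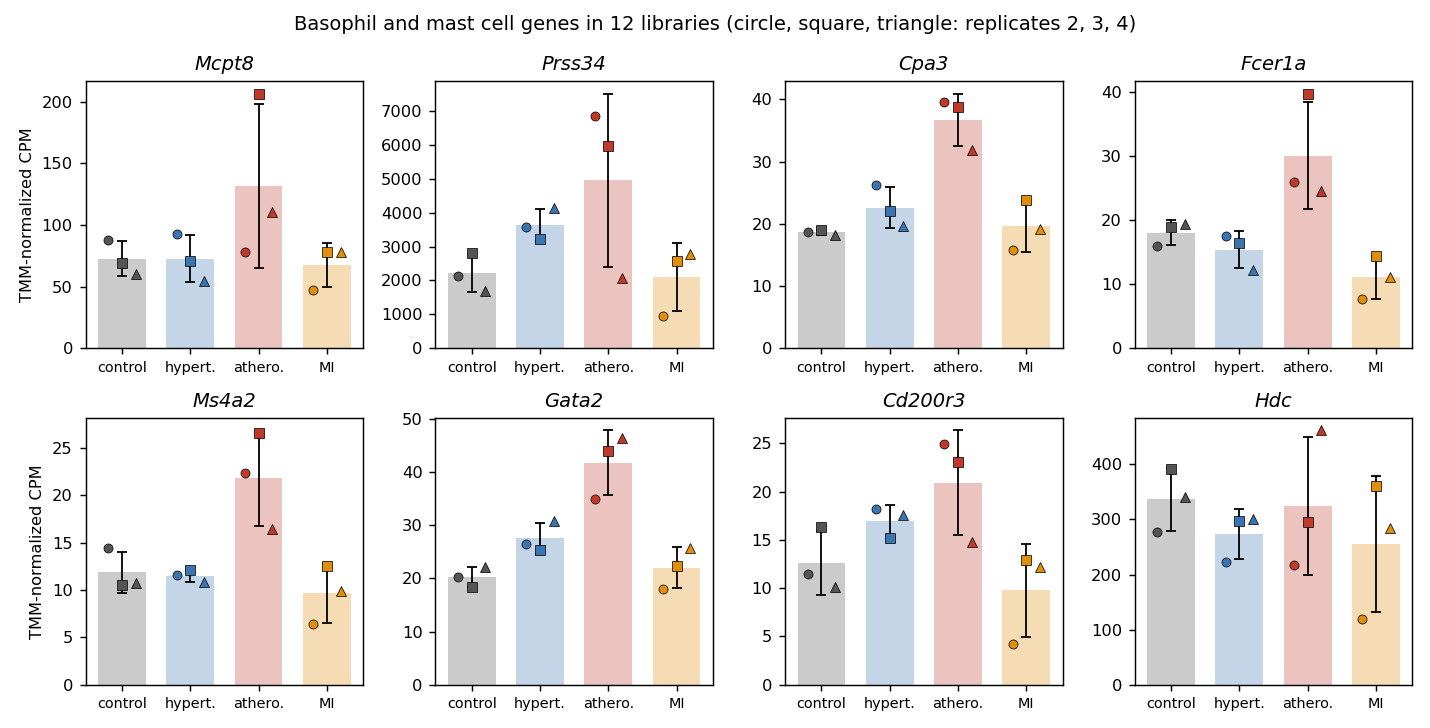
TMM-normalized CPM (vertical axis, linear from 0, a scale per gene) of the 8 genes in each library, with circles, squares and triangles for replicates 2, 3 and 4, bars for the group mean and whiskers for the SD (n = 3). For *Gata2*, *Cpa3*, *Fcer1a* and *Ms4a2*, the 3 atherosclerosis libraries lie above every control library.

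*Mcpt8* (chromosome 14, 56082166 to 56085273, minus strand, GRCm38) encodes mast cell protease 8, which despite its name is a basophil protease. It read 88.0, 69.5 and 60.4 CPM in the controls (72.6 ± 14.1, SD, n = 3), 92.4, 70.6 and 54.5 CPM in hypertension, 78.1, 206.6 and 110.2 CPM in atherosclerosis, and 47.3, 77.8 and 78.1 CPM in MI. The control, hypertension and MI ranges overlapped, and 1 atherosclerosis library stood far above all others while another lay within the control range. *Mir6949* lies within *Mcpt8* on the same strand. *Mcpt8* belongs to the chymase locus, whose other members include mast cell chymases and granzymes. Of the 15 genes of that locus, 4 passed the filter. *Mcpt8* had 20288 counts summed over the 12 libraries, and *Ctsg*, a neutrophil and monocyte protease, had 46196. The mast cell chymases were almost silent, with 1 count in all for *Mcpt4*, 5 for *Mcpt1*, 47 for *Mcpt2* and 118 for *Cma1*, and 5 genes of the locus had none. These proteases are close relatives, and the counting option used leaves out reads that map to several places, so their counts are uncertain to that degree.

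*Prss34* (chromosome 17, 25298394 to 25300165, plus strand) encodes mast cell protease 11, a tryptase-like enzyme of basophils. It read 2145, 2805 and 1684 CPM in the controls, 3573, 3218 and 4138 CPM in hypertension, 6848, 5986 and 2058 CPM in atherosclerosis, and 954, 2583 and 2791 CPM in MI. All hypertension libraries lay above all controls, whereas 1 atherosclerosis library fell among the controls. In the tryptase locus *Prss34* had 779909 counts over the 12 libraries. Its neighbors *Prss28* and *Prss30* had 219 and 426, and the mast cell tryptases *Tpsb2*, *Tpsab1* and *Tpsg1* had 9, 2 and 0. Of 11 mast cell markers, 2 passed the filter, *Cma1* and *Kit*, and *Kit* is shared with progenitors. *Mcpt9*, *Tpsg1* and *Mrgprb2* had no count in any library, which allows up to 3 counts each. The ratio of *Prss34* to *Mcpt8* counts was between 18.7 and 87.7, so the basophil proteases did not keep a fixed proportion.

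**Figure D2:**
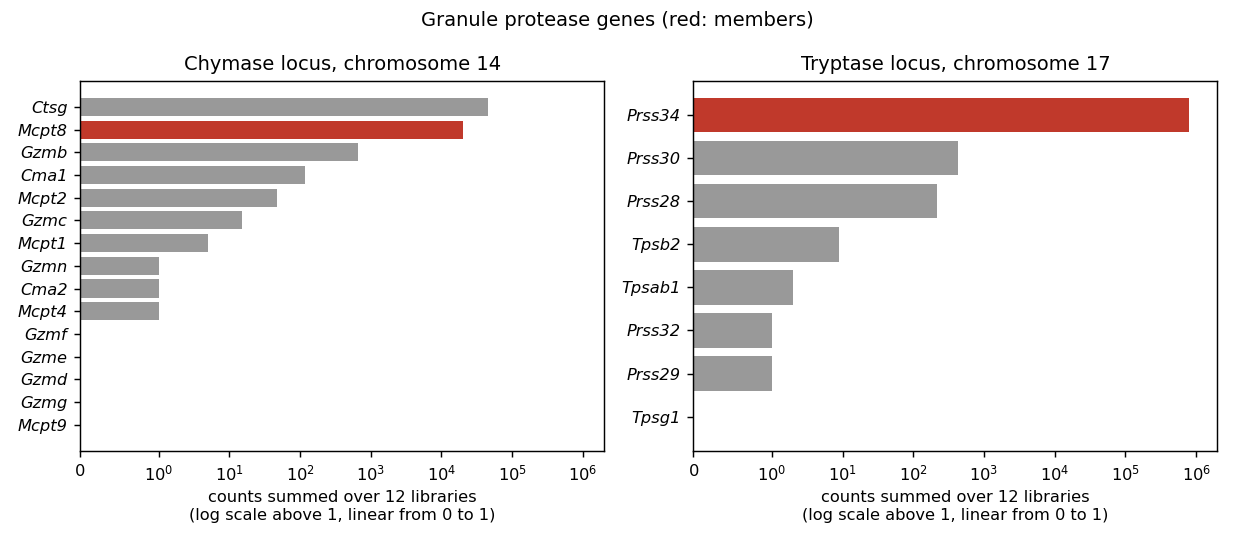
Counts summed over the 12 libraries (horizontal axis, logarithmic above 1 and linear from 0 to 1) of the genes of the chymase locus on chromosome 14 and of the tryptase locus on chromosome 17, with *Mcpt8* and *Prss34* in red. *Prss34* reached 779909 counts and *Mcpt8* 20288, whereas the mast cell tryptases had at most 9.

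*Cpa3* (chromosome 3, 20215620 to 20242181, minus strand) encodes carboxypeptidase A3, a granule enzyme of mast cells, basophils and their progenitors. It read 18.6, 19.0 and 18.3 CPM in the controls and 39.5, 38.7 and 31.8 CPM in atherosclerosis. In hypertension it read 26.2, 22.0 and 19.6 CPM, and in MI 15.8, 23.8 and 19.2 CPM. Controls were tightly grouped, both atherosclerosis and hypertension libraries lay above them, and MI libraries fell on either side. *Mir7007* lies within *Cpa3*. In the carboxypeptidase A family, *Cpa6* also passed the filter, with 589 counts in all against 5873 for *Cpa3*.

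*Fcer1a* (chromosome 1, 173221284 to 173227214, minus strand), the chain that binds IgE, read 15.9, 18.9 and 19.4 CPM in the controls, 17.6, 16.5 and 12.2 CPM in hypertension, 26.0, 39.8 and 24.5 CPM in atherosclerosis, and 7.72, 14.4 and 11.2 CPM in MI. All atherosclerosis libraries lay above and all MI libraries below the controls. *Ms4a2* (chromosome 19, 11615523 to 11623719, minus strand), the beta chain that amplifies the signal, read 14.4, 10.6 and 10.7 CPM in the controls, 11.6, 12.1 and 10.9 CPM in hypertension, 22.4, 26.5 and 16.5 CPM in atherosclerosis, and 6.45, 12.6 and 9.89 CPM in MI. Only the atherosclerosis libraries stood apart from the controls for this gene. The count ratio of the chains stayed between 1.11 and 1.81 over the 12 libraries. *Fcer1g*, the gamma chain that many other myeloid receptors share, read 280.5 to 798.3 CPM and was highest in MI replicate 2, the library where *Fcer1a* and *Ms4a2* were lowest.

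*Cd200r3* (chromosome 16, 44943678 to 44981380, plus strand) read 11.5, 16.3 and 10.1 CPM in the controls, 18.2, 15.2 and 17.6 CPM in hypertension, 24.9, 23.1 and 14.8 CPM in atherosclerosis, and 4.25, 12.9 and 12.2 CPM in MI. The disease groups overlapped the controls, and MI replicate 2 was the one extreme value. *Hdc* (chromosome 2, 126593667 to 126619299, minus strand) read 277.7, 391.7 and 340.9 CPM in the controls, 222.0, 297.7 and 300.9 CPM in hypertension, 217.0, 295.6 and 461.6 CPM in atherosclerosis, and 120.2, 361.2 and 284.6 CPM in MI. No group of *Hdc* was separate from another. Among histamine genes, *Slc18a2*, the transporter that loads histamine into granules, read 275.3 CPM in atherosclerosis replicate 2 and 25.6 to 139.9 CPM elsewhere.

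*Gata2* (chromosome 6, 88193891 to 88207032, plus strand) read 20.2, 18.3 and 22.1 CPM in the controls (20.2 ± 1.90, SD, n = 3), 26.4, 25.4 and 30.9 CPM in hypertension (27.6 ± 2.90), 35.0, 43.9 and 46.5 CPM in atherosclerosis (41.8 ± 6.03), and 18.0, 22.3 and 25.8 CPM in MI (22.0 ± 3.89). Atherosclerosis libraries were the highest and hypertension libraries lay between them and the controls, with no overlap among these groups. MI overlapped both the controls and hypertension. Of the other tested GATA genes, *Gata3* also had its highest mean in atherosclerosis, at 7.03 ± 2.69 CPM against 4.79 ± 0.202 CPM in the controls, and *Gata6* had it in MI. *Gata1*, which acts in erythroid, megakaryocyte, mast cell and eosinophil development, was highest in hypertension, at 226.7 ± 16.5 CPM against 165.3 ± 21.3 CPM in the controls and 193.7 ± 19.3 CPM in atherosclerosis (SD, n = 3 each).

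Atherosclerosis against control asks whether these genes differ between the libraries of Apoe-/- mice on a western-type diet and those of naive controls. *Gata2* was higher by log2 1.05 ± 0.17 (SE), a 2.07-fold difference, and passed the test (edgeR quasi-likelihood test, Benjamini-Hochberg adjusted p = 0.0342). It was 1 of 8 genes called, where 0.106% of all genes tested were called higher. *Cpa3* was higher by log2 0.98 ± 0.17, 1.97-fold, and missed the threshold (edgeR adjusted p = 0.0518). The remaining differences did not pass. They were log2 1.17 ± 0.44 for *Prss34* (edgeR adjusted p = 0.724), 0.87 ± 0.24 for *Ms4a2* (0.402), 0.86 ± 0.33 for *Mcpt8* (0.729), 0.73 ± 0.25 for *Fcer1a* (0.623), 0.73 ± 0.34 for *Cd200r3* (0.837) and -0.05 ± 0.35 for *Hdc* (0.991). Without adjustment, 6 of the 8 genes were higher at p under 0.05, where 3.97% of all genes were. The groups did not overlap for 4 of the 8, *Cpa3*, *Fcer1a*, *Ms4a2* and *Gata2*, where 5.04% of all genes lay wholly above the controls. The median log2 difference was 0.87 over the 8 genes and 0.01 over all genes. Without atherosclerosis replicate 3, *Mcpt8* differed by 0.37 and *Fcer1a* by 0.48, and the median was 0.68.

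The *Gata2* call did not hold in every fit. The log2 difference stayed between 0.96 and 1.17 over 14 alternatives, but the call was lost when only these groups were fitted (adjusted p = 0.206) and without control replicate 2, 3 or 4 or atherosclerosis replicate 3 or 4 (adjusted p = 0.156, 0.245, 0.115, 0.108 and 0.107). *Cpa3* passed in 4 of the alternatives, the likelihood-ratio test, DESeq2, no filter on low counts, and removal of immunoglobulin and hemoglobin genes. Beside these differences, erythroid markers were higher in 9 of 9 and stem and progenitor markers in 9 of 10. Megakaryocyte markers were higher in 7 of 8. All are signs of fitted differences, with none called and medians of log2 0.37, 0.29 and 0.23 in that order. The erythroid sum was 7162 to 23790 CPM in atherosclerosis and 7819 to 15850 CPM in the controls. It was lowest of the 12 libraries in atherosclerosis replicate 2. The stem and progenitor sum was 175.4 to 227.1 CPM in atherosclerosis and 142.5 to 183.2 CPM in the controls. The part of any of these cell types in the *Gata2* difference was not tested. *Kit* differed by log2 0.26 ± 0.17 (edgeR adjusted p = 0.873).

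**Figure D3:**
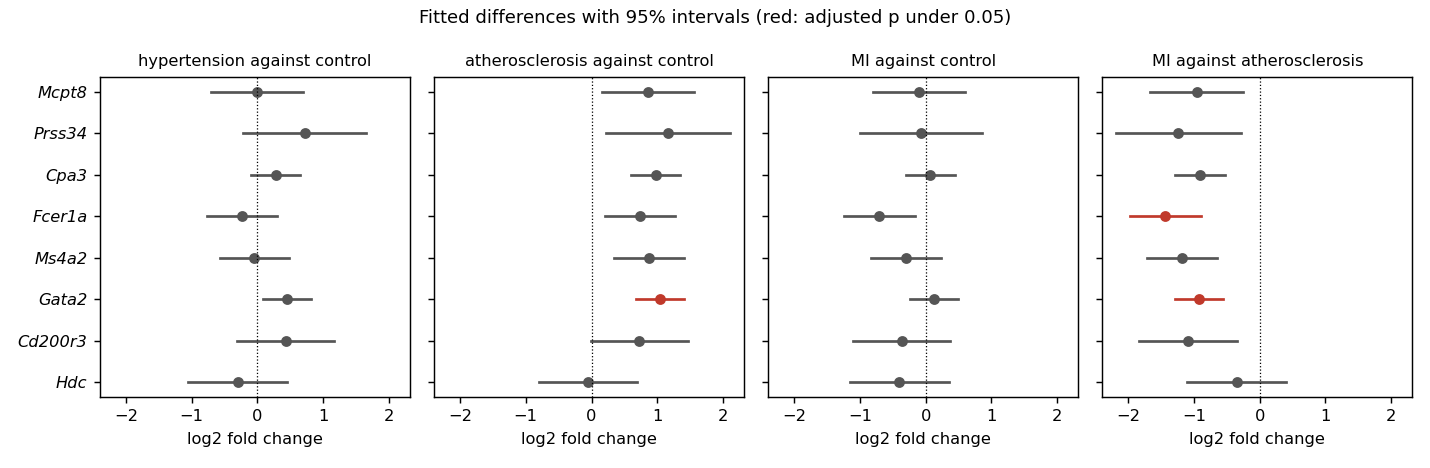
Fitted log2 fold changes (horizontal axis) of the 8 genes with 95% intervals in 4 comparisons, with red for an adjusted p under 0.05. *Gata2* is red for atherosclerosis against control, and *Fcer1a* and *Gata2* are red for MI against atherosclerosis.

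Hypertension against control gave no call among the 8 genes with edgeR's quasi-likelihood or likelihood-ratio test or with DESeq2, and 0% of all genes were called by any of the 3. Without adjustment, 1 of the 8 was higher at p under 0.05, *Gata2* (log2 0.45 ± 0.17, edgeR adjusted p = 0.951), where 2.08% of all genes were. *Prss34* differed by log2 0.72 ± 0.43, *Cd200r3* by 0.43 ± 0.34 and *Cpa3* by 0.28 ± 0.17, and none of these passed. The intervals of the differences still allowed sizeable values, for *Prss34* from log2 -0.22 to 1.66 and for *Mcpt8* from -0.70 to 0.70. The groups did not overlap for *Prss34*, *Cpa3* and *Gata2*, 3 of 8 genes, where 9.02% of all genes lay wholly above the controls. *Fcer1a*, *Ms4a2* and *Hdc* had differences of -0.23, -0.05 and -0.30. The median of the 8 genes was 0.14 against -0.01 over all genes, and between 0.05 (without hypertension replicate 2) and 0.27 (without hypertension replicate 4) when a library was left out. *Cpa3* differed by 0.16 without hypertension replicate 2, *Fcer1a* by -0.08 without hypertension replicate 4 and *Cd200r3* by 0.65 without control replicate 3.

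MI against control gave no call among the 8 genes by the same 3 tests. Over all genes, 0% were called by the quasi-likelihood test and 1 gene was called by the likelihood-ratio test and by DESeq2. *Fcer1a* was lower by log2 -0.70 ± 0.25 (edgeR adjusted p = 1). It was the 1 member lower at an unadjusted p under 0.05, where 1.57% of all genes were, and also the 1 member whose MI libraries all lay below the controls, where 4.59% of all genes did. Without MI replicate 2 the difference was -0.50. The other MI libraries read 14.4 and 11.2 CPM, and leaving out the lowest library could not bring them among the controls. *Ms4a2*, *Cd200r3* and *Hdc* had fitted differences of -0.30 ± 0.25, -0.37 ± 0.34 and -0.40 ± 0.35, which became -0.08, -0.01 and -0.06 without MI replicate 2. *Mcpt8* and *Prss34* changed sign without that library, from -0.10 to 0.10 and from -0.07 to 0.28. *Cpa3* and *Gata2* went from 0.07 to 0.21 and from 0.12 to 0.25. The median of the 8 genes was -0.20 against 2e-04 over all genes, and it turned to 0.05 without MI replicate 2, so its sign rests on that library.

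In MI against atherosclerosis the median log2 difference was -1.03 over the 8 genes and -0.02 over all genes, and -0.78 and -0.04 without MI replicate 2. *Fcer1a* was lower in MI by log2 -1.44 ± 0.25, 0.370 times the atherosclerosis level (edgeR adjusted p = 0.0378), and *Gata2* by log2 -0.92 ± 0.17, 0.527 times that level (edgeR adjusted p = 0.041). These were 2 of 8 genes called, where 0.2% of all genes were called lower. *Cpa3* (log2 -0.91 ± 0.17, edgeR adjusted p = 0.0524) and *Ms4a2* (log2 -1.18 ± 0.25, adjusted p = 0.0675) did not pass. *Mcpt8*, *Prss34*, *Cd200r3* and *Hdc* differed by -0.96, -1.23, -1.10 and -0.35, and did not pass either. Without adjustment 7 of the 8 were lower, where 7.36% of all genes were, and the groups did not overlap for 6 of the 8, all but *Prss34* and *Hdc*, where 7.44% of all genes lay wholly below. For *Mcpt8* the groups almost touched, at 78.09 CPM in MI replicate 4 and 78.12 CPM in atherosclerosis replicate 2. That gap is the same with or without MI replicate 2. Without MI replicate 2, neither call was kept, with *Fcer1a* at -1.23 (edgeR adjusted p = 0.133) and *Gata2* at -0.80 (adjusted p = 0.143). Leaving out that library could not make the groups overlap for the 6 genes, since it was the lowest for each of them. The other fitted differences were then -0.76 for *Mcpt8*, -0.88 for *Prss34*, -0.77 for *Cpa3*, -0.95 for *Ms4a2*, -0.73 for *Cd200r3* and -0.01 for *Hdc*. Both calls were also lost without atherosclerosis replicate 3 (adjusted p = 0.074 and 0.0792) or 4 (0.0589 and 0.122), without MI replicate 4 (0.127 and 0.0987) and in a fit of only these groups (0.249 and 0.357), and that of *Gata2* without MI replicate 3 (0.119). This comparison shares the atherosclerosis libraries with the one against control and the MI libraries with the other, and it sets Apoe-/- mice on a western-type diet against C57BL/6J mice.

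Atherosclerosis against hypertension gave 0 of 8 calls, where 0.0625% of all genes were called in either direction, with 0 members also by the likelihood-ratio test and DESeq2. The groups did not overlap for *Cpa3*, *Fcer1a*, *Ms4a2* and *Gata2*, where 5.79% of all genes lay wholly above, and 5 of the 8 were higher at an unadjusted p under 0.05, where 3.86% were. *Fcer1a* differed by log2 0.96 ± 0.25, *Ms4a2* by 0.92 ± 0.24 and *Cpa3* by 0.70 ± 0.17. MI against hypertension gave 0 calls among the 8 by the 3 tests, and 0% of all genes by the quasi-likelihood test, 2 genes by the likelihood-ratio test and 22 by DESeq2. *Cd200r3* (log2 -0.80 ± 0.34) was the 1 member lower at an unadjusted p under 0.05, where 4.23% were, and *Prss34* and *Cd200r3* lay wholly below, where 10.2% did. Without MI replicate 2, these genes differed by -0.44 each, and the median of the 8 genes went from -0.29 to -0.13.

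**Figure D4:**
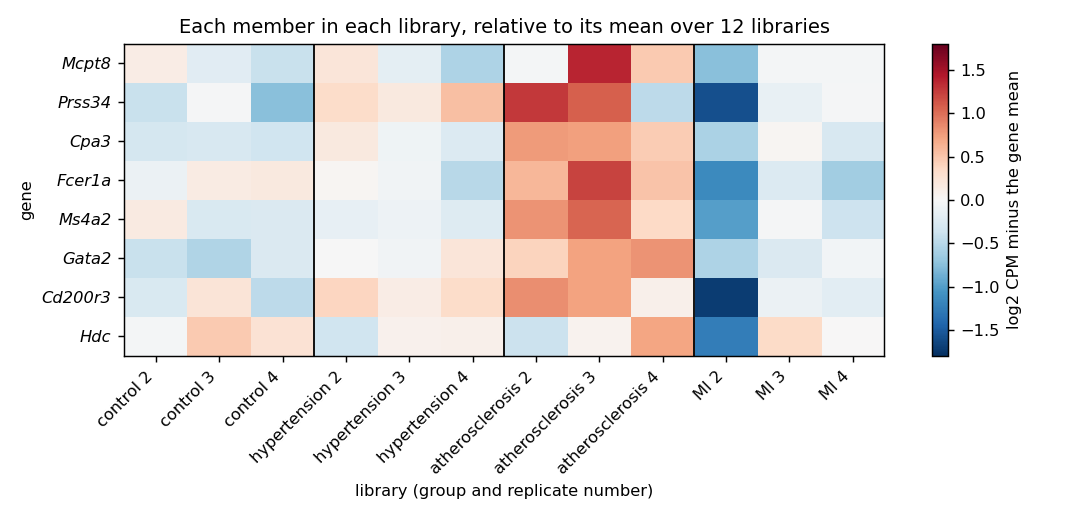
Each gene in each library as log2 CPM minus its mean over the 12 libraries (color scale, from -1.71 to 1.37 in these data), with libraries in columns by group and replicate number. MI replicate 2 is the lowest library in every row, and each atherosclerosis library is above the gene mean in most rows.

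The lists around the 8 genes showed few calls. Of 18 genes of IgE receptor signaling, none was called against controls. In MI against atherosclerosis 2 of the 18 were called lower, where 0.2% of all genes tested were. They were *Fcer1a*, already counted among the 8 genes, and *Fyn*, a Src family kinase of this pathway and of many others. *Fyn* read 62.0, 58.4 and 63.4 CPM in atherosclerosis, 30.7, 35.3 and 37.1 CPM in MI and 44.4, 44.9 and 46.5 CPM in the controls, and differed by log2 -0.83 ± 0.12 between the former groups (edgeR adjusted p = 0.0152). The controls lay between the disease groups for this gene. Of 16 transcription factors of these lineages, *Gata2* was the 1 called against controls, in atherosclerosis, and it was also the 1 called of 4 tested GATA genes. That is the call already given above, where 0.106% of all genes tested were called higher. No gene was called against controls in the lists of 12 growth factor and alarmin receptors, 5 tested histamine genes, 15 tested secreted or granule products, 4 tested CD200 receptor family genes, 2 tested carboxypeptidases and 13 tested Ms4a genes. The 4 basophil markers that are not among the 8 genes, *Itga2*, *Il3ra*, *Cyp11a1* and *Grm6*, had a median difference of log2 0.40 in atherosclerosis, -0.08 in hypertension and -0.21 in MI, with none called. No eosinophil, neutrophil, megakaryocyte, endothelial, erythroid or tested mast cell marker was called in any of the 6 comparisons. Among the 4 basophil markers, the atherosclerosis libraries lay wholly above the controls for *Cyp11a1*, the enzyme that starts steroid synthesis, and for *Grm6*. The latter read at most 1.25 CPM. For *Itga2* and *Il3ra* the groups overlapped, and 5.04% of all genes tested lay wholly above the controls. The neutrophil markers, in contrast, had a fitted difference below 0 in 13 of 13 in both atherosclerosis and hypertension against control, with none called. Their sum was 34070 to 73600 CPM in atherosclerosis, which overlapped the 58780 to 80630 CPM of the controls. In hypertension it was 37250 to 54050 CPM.

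The 8 genes did not follow a single pattern over the 12 libraries. Over the 12 libraries, which share the 4 groups, *Prss34* was near the top of the genes most like *Cd200r3* (Pearson's r of log2 CPM 0.94, rank 3 among the genes tested), and *Fcer1a* of those most like *Ms4a2* (r = 0.90, rank 2). *Cpa3* and *Ms4a2* were at rank 4 for each other, whereas the member nearest to *Hdc*, *Cd200r3*, was at rank 2009. Among genes that are not members, the most alike were *Il18* for *Mcpt8* (r = 0.90), *Med29* for *Prss34* (0.94), *Ifih1* for *Cpa3* (0.94), *Rnase6* for *Fcer1a* (0.94), *Cd28* for *Ms4a2* (0.91), *Ace* for *Gata2* (0.93), *Hdac9* for *Cd200r3* (0.96) and *Wdr47* for *Hdc* (0.99). For the mean of the 8 genes, the 10 most alike were *Rtp4* (r = 0.94), *Irf7*, *Ifit1*, *Gm43864*, *Gm47242*, *Six5*, *Oasl2*, *Dusp5*, *H2-T24* and *Cd27* (r = 0.89). *Rtp4*, *Irf7*, *Ifit1* and *Oasl2* are interferon-induced genes. Each of them was lowest in MI replicate 2, the library that was also lowest for each of the 8 genes. *Irf7*, for example, read 29.44 CPM there and 76.24 to 228 CPM elsewhere. Each was also higher in every atherosclerosis library than in any other library. The part of MI replicate 2 in these r values was not tested. All likenesses given here are descriptions over n = 12 libraries that differ in group, chosen as the highest among 15999 genes tested.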

How the data were processed

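RNA of 12 libraries was compared, 3 in each of 4 groups. The authors deposited raw counts per Ensembl gene. Per the submitters' processing notes, reads were aligned to GRCm38.p6 with STAR 2.7.3a, and the study's methods give its GeneCounts option as the source of the counts. Which strand column was taken is not given in the sources used here, so the counts of overlapping genes are uncertain to that degree. Symbols, positions and exon lengths came from GENCODE M21, which held 55240 of the 55421 genes. All sample columns were used.

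In R 4.3.3, edgeR 4.0.16 was run with filterByExpr (15999 genes), TMM scaling and 1 coefficient per group over all 12 libraries (glmQLFit, glmQLFTest, two-sided, 8 residual degrees of freedom). Adjustment was by Benjamini-Hochberg over all tested genes, with calls under 0.05. CPM are TMM-normalized. SEs are the log2 fold change divided by the root of F. P values set a group difference against the spread between mice, which was estimated over all 12 libraries and drawn toward that of other genes. In an exact permutation test, 3 against 3 could not go below 0.1. On simulated counts for atherosclerosis against control (15710 genes), 128 of 200 changed genes were called, 36 of 100 at log2 1 and 92 of 100 at log2 2, with 4 unchanged genes called. Every gene was simulated with the same spread between mice (dispersion 0.0634). Real genes differ in spread, so these rates need not hold for them.

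All 8 members are named whatever their values. From other lists, called genes are named and family or locus genes are given by level, and for likeness the genes with the highest r were taken. Any further gene was picked with its values in view. The members and lists were chosen with earlier results of these data known. Alternatives were the likelihood-ratio test, DESeq2 1.42.0, RLE factors, other count filters (none, or a mean CPM of at least 1), only the compared groups, replicate number as a block, removal of immunoglobulin and hemoglobin genes, and leaving out each library.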

Additional observations from a re-analysis of the deposited data

Results flagged for a closer look

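Both differences below are between disease groups, tested directly in the same model. *Fcer1a* was lower in MI than in atherosclerosis by log2 -1.44 ± 0.25 (edgeR adjusted p = 0.0378), and *Gata2* by log2 -0.92 ± 0.17 (edgeR adjusted p = 0.041). For each, all MI libraries lay below all atherosclerosis libraries, where 7.44% of all genes did. Without MI replicate 2, the lowest library for both genes, neither call was kept. Against controls, *Fcer1a* differed by 0.73 in atherosclerosis and -0.70 in MI, and *Gata2* by 1.05 and 0.12. Over the 14 alternatives, the adjusted p was 1.34e-07 to 0.249 for *Fcer1a* and 0.000659 to 0.357 for *Gata2*. No cause of these differences was tested.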

How the results depend on the processing

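Hypertension and MI against control gave 0 member calls under all 14 alternatives each. In atherosclerosis against control, the 1 member call became 2 with the likelihood-ratio test, 2 with DESeq2, 2 without immunoglobulin and hemoglobin genes, 5 with no low-count filter and 0 with only these groups, and 0 to 1 when a library was left out. In MI against atherosclerosis, the 2 calls became 4, 4, 3, 7 and 0 in the same settings, and 0 to 2 when a library was left out. With no filter, atherosclerosis against hypertension gave 3 calls and MI against hypertension 2, instead of 0. That filter also moved the count over all genes, from 23 to 432 in atherosclerosis and from 0 to 170 in hypertension and 130 in MI, and the cause was not tested. Counts over all genes with the likelihood-ratio test and DESeq2 were 81 and 81 for atherosclerosis, 70 and 76 instead of 10 against hypertension, and 274 and 301 instead of 43 for MI against atherosclerosis, and they were 4, 7 and 3 with only the compared groups. Without immunoglobulin and hemoglobin genes, MI against atherosclerosis gave 66. Without single libraries the counts ran from 2 to 34, 3 to 36 and 8 to 93. Mice of the same number did not deviate together (r between -0.28 and 0.30, median -0.02, and -0.30 to 0.39 for different numbers). No pairing by number was thus seen, though 3 mice per group could miss a weak one. The replicate block left the member calls at 1 and 2 and took the all-gene counts from 23 to 7 and from 43 to 22, with adjusted p = 0.0489 for *Gata2* in atherosclerosis. Small differences changed sign. *Mcpt8* in hypertension became 0.0167 with no filter and 0.0032 without immunoglobulin and hemoglobin genes, and ran from -0.21 to 0.17 when a library was left out. In the same way, *Ms4a2* in hypertension ran from -0.13 to 0.11, *Hdc* in atherosclerosis from -0.39 to 0.18, and in MI *Mcpt8* from -0.22 to 0.10, *Prss34* from -0.32 to 0.28, *Cpa3* from -0.10 to 0.21 and *Gata2* from -0.0055 to 0.25. *Hdc* in atherosclerosis against hypertension ran from -0.10 to 0.48, and in MI against hypertension *Mcpt8* ran from -0.27 to 0.12 and *Hdc* from -0.44 to 0.24.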
